A study of Mus musculus with 16 samples.

Results

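The 10 genes described here encode subunits of calcium channels of the plasma membrane or proteins of the sarcoplasmic reticulum, the calcium store of muscle. They were chosen by name, and their probes were found through the accession that the array files give for each probe. All 10 genes were tested among 26781 genes with a measured probe, and they had 16 of the 55681 probes of the array, all of which were kept. RNA of the bladder body of C57BL/6 mice was hybridized to 16 arrays, 1 bladder on each. The groups were 4 mature (MAT, 12 months old) males, 4 aged (AGED, 27 to 30 months old) males, 4 MAT females and 4 AGED females. All mice were of the same strain, and the labels name no treatment. Each AGED group was compared with the MAT group of the same sex to ask how expression differed with age in male and in female bladder.

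In detrusor, the smooth muscle of the bladder wall, calcium enters through voltage-gated channels during an action potential and is also released from the store. An L-type channel is built of a pore subunit such as Cacna1c, a beta subunit inside the membrane and an alpha2delta subunit outside it. Ryanodine receptors and inositol trisphosphate receptors release stored calcium, the pump Atp2a2 (SERCA2) returns it to the store, and phospholamban (Pln) holds that pump back. When the store is empty, its sensor Stim1 opens Orai channels in the plasma membrane.

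A level is the log2 processed signal of a probe less the 75th percentile of its array. A level of 0 is thus the signal below which 75% of an array's probes lay, and levels of different probes are not comparable. In a single sex, a gene was called when it differed 2-fold or more with an adjusted p below 0.05. In the mean of both age changes, and in their difference, the adjusted p alone decided. The bladder body holds muscle, urothelium and other layers, so that fewer cells of a type and less RNA per cell cannot be told apart. All 8 smooth muscle markers (Acta2, Myh11, Tagln, Cnn1, Des, Smtn, Mylk and Actg2) and all 7 urothelial markers were measured, and none of 4 markers of male accessory glands passed the filter. Sex coincided with the slide (1 slide of females, 1 of males) and age with the row on the slide, and neither pair can be told apart. AGED male replicate 1 was the dimmest array, where the 75th percentile was 9.18 and that of the other AGED males 9.903 to 10.005, and 52.3% of its probes were well above background.

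Promoter sequence was at hand for 6 of the 10 genes (RefSeq, GRCm38.p6, used for sequence and names). Those of Pln, of Orai1 and of Orai2 are shown. Pln is shown because it was the only 1 of the 10 genes to pass the test. The Orai genes are shown because the male MAT and AGED arrays of their tested probes did not overlap, in opposite directions. Their other probes overlapped between these groups. Each run holds the 250 bases before the transcription start, on the strand of the gene, from 5′ to 3′. Capitals mark matches to CCAAT or TATAAA on either strand.
Pln, chr10:53337436-53337685, plus strand: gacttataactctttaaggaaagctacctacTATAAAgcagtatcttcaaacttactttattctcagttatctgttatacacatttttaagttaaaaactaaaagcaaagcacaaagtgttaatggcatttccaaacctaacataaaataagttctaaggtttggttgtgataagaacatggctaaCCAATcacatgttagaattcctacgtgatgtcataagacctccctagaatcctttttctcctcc
Orai1, chr5:123014824-123015073, plus strand: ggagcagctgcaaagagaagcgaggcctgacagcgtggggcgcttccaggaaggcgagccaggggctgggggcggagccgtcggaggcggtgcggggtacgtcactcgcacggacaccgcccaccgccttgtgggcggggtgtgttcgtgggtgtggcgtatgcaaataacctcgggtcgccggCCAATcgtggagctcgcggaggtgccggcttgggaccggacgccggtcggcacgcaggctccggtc
Orai2, chr5:136170657-136170906, minus strand: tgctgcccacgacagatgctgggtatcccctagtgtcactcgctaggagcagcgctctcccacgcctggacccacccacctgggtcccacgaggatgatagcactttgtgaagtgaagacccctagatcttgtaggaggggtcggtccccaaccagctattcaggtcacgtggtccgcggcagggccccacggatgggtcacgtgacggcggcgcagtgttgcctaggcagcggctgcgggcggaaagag

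The window of Pln held 1 TATAAA and 1 CCAAT, that of Orai1 held 1 CCAAT, and that of Orai2 held neither. Of all 32851 promoter windows of this length, 33.8% held CCAAT and 12.4% held TATAAA. G and C made up 32.8% of the bases before Pln, 70.8% before Orai1 and 63.6% before Orai2. The CArG box of serum response factor was found in 1.5% of all windows and the MEF2 box in 2.9%, on either strand, where a TATAAA may lie within a MEF2 box. Neither box was found in the 9 windows of the 6 genes with a promoter, where CCAAT was found for 3 genes and TATAAA for 1.

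None of the 10 genes was called in males and none in females, where 0.851% and 0.19% of all genes were called. Averaged over the sexes, 1 of the 10 passed (Pln, lower), where 1.14% of all genes passed and 0.65% were lower. None passed for the difference of the age changes between the sexes, where 0.149% of all genes did. At an unadjusted limma p under 0.05, Orai1 and Pln were lower in males and Pln in females, where 16.2% and 10.5% of all genes were past it in either direction. Pln, Atp2a2 and Orai1 were lower at that p in the mean of both sexes, where 17.8% of all genes were past it. The median age change of the 10 genes was -0.24 on the log2 scale in males and -0.27 in females, while that of all genes tested was 0.00 in males and -0.01 in females. The change was below 0 for 9 of the 10 genes in males and for 7 in females. Of all 26781 genes it was below 0 for 13345 in males and for 13643 in females. With the normexp background correction, which raised the median of all genes in males by 0.12, the counts of the 10 genes were 5 and 7, and the median of the 10 genes in males was 0.02.

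**Figure D1:**
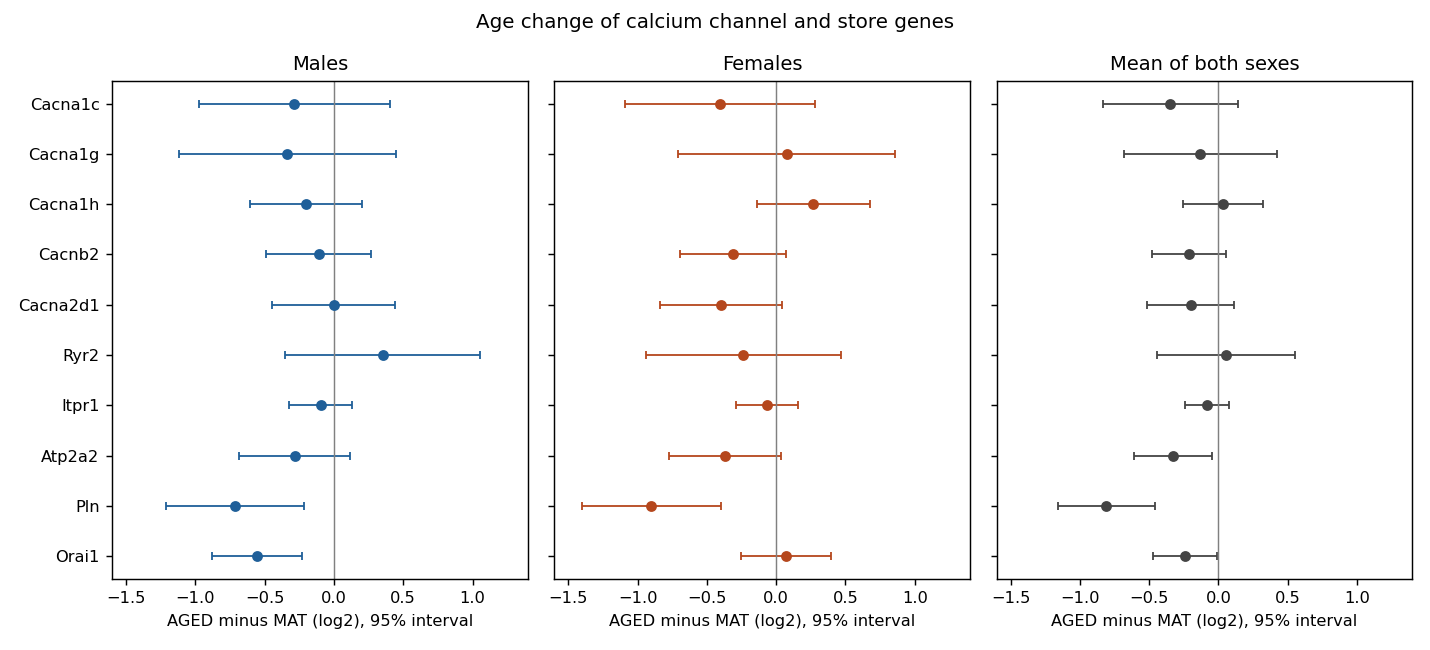
The plot of age changes gives AGED minus MAT for each of the 10 genes in log2 units, in males, in females and as the mean of both sexes. Points are limma estimates and bars their 95% intervals. Pln had an interval below 0 in all 3 panels, and Ryr2, Cacna1g and Cacna1c had the widest intervals.

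Pln inhibits the SERCA pump until it is phosphorylated. Pln had 1 probe, so that no other probe of it could be compared. The level of Pln was lower in AGED than in MAT bladder by 0.81 on the log2 scale in the mean of both sexes, a 1.75-fold difference. In MAT males the levels of Pln were -3.22, -3.19, -3.12 and -3.0, and in AGED males they were -3.70, -3.12, -4.46 and -4.12. AGED male replicate 2 lay within the MAT males and the other 3 AGED males lay below them. In MAT females the levels were -2.47, -2.83, -2.91 and -2.36, and in AGED females they were -3.62, -3.23, -3.52 and -3.82. The female groups did not overlap, as was the case with AGED lower for 5.78% of all genes. Over the whole array, the share of probes well above background was 64.6% to 68.2% in MAT and 59.9% to 63.2% in AGED females, which did not overlap, and 60.4% to 65.9% in MAT and 52.3% to 61.2% in AGED males. Its part in the level of Pln was not tested.

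The age change of Pln was -0.71 (SE 0.23, adjusted p = 0.145) in males and -0.90 (SE 0.23, adjusted p = 0.170) in females, so that it was called in neither sex. The mean of both was -0.81 (SE 0.17, 95% interval -1.16 to -0.45, adjusted p = 0.0340 with limma). The exact two-sided permutation test of Pln, with arrays exchanged within each sex, gave p = 0.00163, and in females alone the exact p was 0.0286, the smallest that 4 against 4 arrays allow. The difference between the male and the female change was 0.19 (95% interval -0.52 to 0.89, adjusted p = 0.906), an interval that holds differences as large as the change itself. The call of Pln in the mean of both sexes was lost when any 1 of the 4 MAT male arrays, MAT female replicate 1, 2 or 4, or AGED female replicate 1 or 4 was left out, with an adjusted p of 0.052 to 0.086 in these 9 fits and a change of -0.76 to -0.84. Without the dimmest array, AGED male replicate 1, the change was -0.83 (adjusted p = 0.0333). With the normexp background correction it was -0.38 (adjusted p = 0.0903), with -0.16 in males and -0.60 in females.

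The 8 smooth muscle genes did not pass the test with age in either sex. Their mean was 6.98 to 7.09 in MAT males, 6.82 to 7.22 in AGED males, 6.86 to 7.05 in MAT females and 6.56 to 7.16 in AGED females. Their age changes ran from -0.35 (Des, the intermediate filament of muscle) to 0.19 (Tagln) in males and from -0.49 (Smtn) to 0.18 (Cnn1) in females. The other probe of Smtn had a mean level of 2.78 in AGED and 2.74 in MAT females, and of 1.81 in AGED and 2.04 in MAT males. The heavy chain of smooth muscle myosin, Myh11, differed by 0.07 in males and by -0.06 in females. Relative to the mean of these 8 genes, Pln differed by -0.70 in males (exact permutation p = 0.0857) and by -0.86 in females (exact permutation p = 0.0286). The mean of both was then -0.78 with an adjusted p of 0.0820, so that it was not called, where 0.523% of all genes were. When AGED male replicate 2 was left out it was -0.90 and called (adjusted p = 0.0225), and after quantile normalization it was -0.69 and called (adjusted p = 0.0468).

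**Figure D2:**
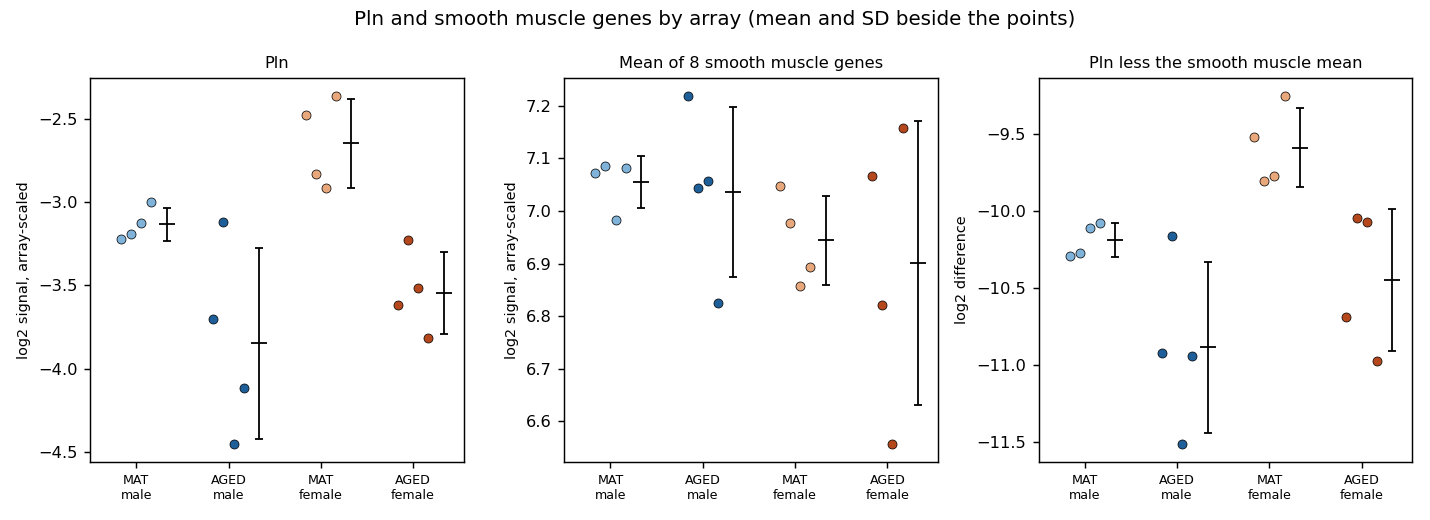
Pln, the mean of the 8 smooth muscle genes, and the difference of these are plotted for each of the 16 arrays in log2 units, with the mean and SD of each group beside its points. Pln was lower in all AGED females than in any MAT female, from -3.82 to -3.23 against -2.91 to -2.36, while the smooth muscle means of the same groups overlapped.

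Of the marker lists of other cells given here, only the nerve list in females did not overlap between the ages. The mean of 7 peripheral nerve genes was 1.05 to 1.11 in MAT females and 0.43 to 0.80 in AGED females, which did not overlap, and 0.77 to 1.17 in MAT and 0.13 to 1.36 in AGED males. The mean of 6 adipocyte genes was 1.32 to 3.05 in MAT and 0.45 to 1.54 in AGED females, and -3.45 to 0.82 in MAT and -3.72 to 0.22 in AGED males. The mean of 5 skeletal muscle genes was 1.15 to 1.71 in MAT and 0.27 to 1.42 in AGED males, and 0.71 to 1.55 in MAT and 0.98 to 1.57 in AGED females. These 3 lists thus overlapped between the ages in males. The mean of 6 fibroblast genes was 5.86 to 5.998 in MAT and 5.22 to 5.98 in AGED males, and 5.995 to 6.10 in MAT and 5.62 to 6.33 in AGED females. Of these 6 genes, 5 had a male age change below 0 (median -0.38), 3 of them at an unadjusted limma p under 0.05. Of all 26781 genes, 13345 had a male age change below 0, 2238 of them at that p. The mean of 6 leukocyte genes was 0.52 to 0.96 in MAT and 0.42 to 1.96 in AGED males, and 0.65 to 1.22 in MAT and 0.58 to 1.49 in AGED females. All 6 had a male age change above 0 (median 0.38), none at an unadjusted limma p under 0.05, while 13436 of all 26781 genes had a male age change above 0. None of the genes of these 5 lists was called with age. Their part in the level of Pln was not tested.

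Atp2a2 encodes SERCA2, the pump that Pln inhibits. In MAT females the levels of Atp2a2 were 4.04, 3.74, 3.76 and 3.95, and in AGED females they were 3.68, 3.43, 3.44 and 3.44. The female groups did not overlap, as was the case with AGED lower for 5.78% of all genes. In MAT males they were 4.16, 3.22, 4.24 and 4.23, and in AGED males 3.60, 3.74, 3.69 and 3.69. MAT male replicate 2 was the lowest of all 16 arrays, while the other 3 MAT males lay above every AGED male.

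The age change of Atp2a2 was -0.28 (SE 0.19) in males and -0.37 (SE 0.19) in females, with adjusted p = 0.474 and 0.517. In females the exact two-sided permutation p was 0.0286. The mean of both sexes was -0.33 (adjusted p = 0.221), and it was called, at -0.45 with an adjusted p of 0.0185, when MAT male replicate 2 was left out. The other probe of Atp2a2 differed by -0.32 in males and by -0.17 in females, and its groups overlapped in both sexes (exact permutation p = 0.171 and 0.429). None of 7 other tested genes for store pumps, their regulators and calcium buffers was called with age. Sri, which encodes the calcium-binding protein sorcin, had the highest mean level of that list and differed by -0.01 in males and -0.08 in females. Sln, which encodes sarcolipin, another inhibitor of the SERCA pump, was named after its values were seen. The levels of Sln were -6.74, -7.22, -7.47 and -6.63 in MAT males, none of them well above background, and -6.26, -4.14, -6.14 and -5.08 in AGED males, with replicates 2 and 4 well above it. The AGED males lay above the MAT males, but AGED male replicates 1 and 3 were not well above background either. The size of this difference was thus not measured, and no fold difference is given. Sln was not called in males (adjusted p = 0.108). With array weights it was called (adjusted p = 0.0464). In females 1 of 4 arrays at each age was well above background.

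Ryr2 and Itpr1 release calcium from the store. Ryr2 had 1 probe, and its levels were -2.08, -2.82, -2.40 and -2.45 in MAT males and -1.14, -1.85, -2.32 and -3.02 in AGED males. The AGED males spread on both sides of the MAT males. The levels of Ryr2 in females were -3.14 to -2.46 in MAT and -3.58 to -2.53 in AGED, which overlapped. The age change of Ryr2 was 0.35 (95% interval -0.35 to 1.06) in males and -0.24 (95% interval -0.94 to 0.47) in females, and both intervals hold falls and rises.

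Itpr1 had the narrowest interval of the 10 genes. Its level was 4.81 ± 0.06 in MAT males and 4.71 ± 0.09 in AGED males, and 4.56 ± 0.08 in MAT and 4.49 ± 0.17 in AGED females (mean ± SD, n = 4 each). The age change was -0.10 in males (95% interval -0.32 to 0.13) and -0.07 in females (95% interval -0.29 to 0.16), so that a 2-fold change lay outside both intervals. Of 12 other genes for release channels and their partners, 11 were tested and none was called with age. Fkbp1a, whose product binds ryanodine receptors, had the highest mean level of that list and differed by -0.14 in males and by -0.05 in females.

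Trdn, which encodes triadin, a partner of the ryanodine receptor in the store membrane, was named after its values were seen. The levels of its tested probe were -2.72, -2.66, -2.98 and -3.14 in MAT males and -3.41, -3.71, -4.49 and -4.39 in AGED males. The male groups did not overlap, as was the case with AGED lower for 3.91% of all genes. In females the levels were -2.91 to -0.97 in MAT and -3.47 to -2.505 in AGED, which overlapped. Trdn differed with age by -1.13 (SE 0.37, adjusted p = 0.145) in males and by -1.02 (SE 0.37, adjusted p = 0.353) in females, and the mean of both was -1.08 (SE 0.26, adjusted p = 0.0615), so that it was not called. That mean passed without the filter on dim probes (adjusted p = 0.0421), with the filter that asks for all 16 arrays (adjusted p = 0.0443), and in 2 of 16 fits without 1 array. Another probe of Trdn, well above background on 4 arrays, was higher in all AGED males (-5.42 to -4.35) than in any MAT male (-7.17 to -5.61). Only 1 of these AGED male and 2 of these MAT male arrays were well above background, so that a rise was not measured. With the kept probes of Trdn averaged, the male change was 0.075 (adjusted p = 0.915 with limma). The skeletal muscle list, which is given beside Pln, had a median male age change of -0.85, and its part in the level of Trdn was not tested.

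Cacna1c encodes the pore of the L-type channel. Its only probe lay near the background and was well above it on 14 of the 16 arrays. The levels of Cacna1c were -4.47, -4.08, -4.86 and -4.67 in MAT males and -4.52, -4.54, -4.74 and -5.41 in AGED males. In MAT females they were -4.33, -4.74, -4.98 and -4.97, and in AGED females -4.44, -6.21, -5.18 and -4.81. The groups overlapped in both sexes. The lowest level was that of AGED female replicate 2, an array where the probe was not well above background. The age change was -0.29 in males (95% interval -0.97 to 0.40) and -0.41 in females (95% interval -1.09 to 0.28), wide enough to hold a fall near 2-fold and a rise. Leaving out 1 array gave female changes from -0.65 to -0.06, and it was -0.06 without AGED female replicate 2.

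Cacna1g and Cacna1h encode the pores of T-type channels, which open at more negative voltages. Cacna1g was at -4.31 to -2.93 in MAT males and at -4.88 to -3.08 in AGED males, and at -3.31 to -2.504 in MAT and -3.30 to -2.44 in AGED females. These groups overlapped in both sexes. The 2 probes of Cacna1g had male age changes of opposite sign, -0.34 for the tested probe and 0.42 for the other.

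The tested probe of Cacna1h was at 2.15 to 2.54 in MAT males and 1.75 to 2.38 in AGED males, and at 2.05 to 2.39 in MAT and 2.09 to 2.80 in AGED females. Its age change was -0.20 in males and 0.27 in females, and the difference of these was -0.47 (95% interval -1.05 to 0.11, adjusted p = 0.612). The other probe of Cacna1h was dimmer, well above background on 14 arrays, and lower in all AGED males than in any MAT male. Of all genes, 3.91% were likewise lower without overlap in AGED males. AGED male replicate 1 was not well above background for this probe. The probe differed by -0.43 in males, with an exact permutation p of 0.0286 that is the smallest possible, and by -0.20 in females (exact permutation p = 0.457). Of 7 other pore genes 4 were tested and none was called with age, among them Cacna1a, the P/Q-type pore, at 0.42 in males and -0.09 in females. The tested probe of Cacna1a was at -0.11 in AGED male replicate 1 and at -1.29 to -0.88 in the other AGED males. Its other probe had a mean level of -2.90 in AGED and -2.95 in MAT males, and of -3.03 in AGED and -2.94 in MAT females.

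Cacnb2 and Cacna2d1 encode a beta and an alpha2delta subunit, which carry the pore to the membrane and adjust its gating. Cacnb2 was at -1.91 to -1.49 in MAT males and -2.23 to -1.54 in AGED males, and at -1.90 to -1.32 in MAT and -2.18 to -1.72 in AGED females. The groups overlapped in both sexes. Its other probe had a male age change of 0.45, while the tested probe had -0.11, and both probes were lower in AGED females, by -0.49 and -0.31, with exact permutation p = 0.0571 and 0.171.

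Cacna2d1 had an age change nearer to 0 in males than in females, and the difference between the sexes did not pass the test (0.40, 95% interval -0.23 to 1.02, adjusted p = 0.716). Its levels in MAT females were 3.14, 2.96, 3.0 and 3.29, and in AGED females 3.08, 2.41, 2.68 and 2.61. Only AGED female replicate 1 lay within the MAT females. The age change of the tested probe was -0.40 in females (adjusted p = 0.527) and 0.00 in males. The other probe of Cacna2d1 was lower in all AGED females, by -0.52 (exact permutation p = 0.0286, the smallest possible), and differed by -0.27 in males (exact permutation p = 0.371). Of all genes, 5.78% were likewise lower without overlap in AGED females.

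Of 10 other auxiliary subunit genes 8 were tested, and none was called with age. The change was below 0 for 8 of 8 in females and for 4 of 8 in males. Of all 26781 genes it was below 0 for 13643 in females and for 13345 in males. In AGED mice, 2 of these genes, Cacnb4 (a beta subunit) and Cacng7 (a gamma subunit), were called higher in males than in females, where 3.11% of all genes were called. Sex coincided with the slide, so that no difference between males and females can be told apart from one between slides. Cacnb4 was at -2.91, -2.76, -3.23 and -3.19 in AGED males and at -3.91, -4.06, -4.10 and -4.29 in AGED females, a difference of 1.07 (SE 0.15, adjusted p = 0.00147). Cacng7 differed by 1.01 (SE 0.23, adjusted p = 0.0149), from -4.08 to -2.97 in AGED males and from -4.90 to -3.92 in AGED females. The probe of Cacng7 was not well above background in AGED male replicate 1. None of the 10 channel and store genes was called between the sexes at either age, and 0.164% of all genes were between MAT males and MAT females. With AGED male replicate 4 left out, Ryr2 was called between the sexes in AGED mice, with males higher by 1.18 (adjusted p = 0.0280), while with all arrays the difference was 0.86 (adjusted p = 0.112).

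**Figure D3:**
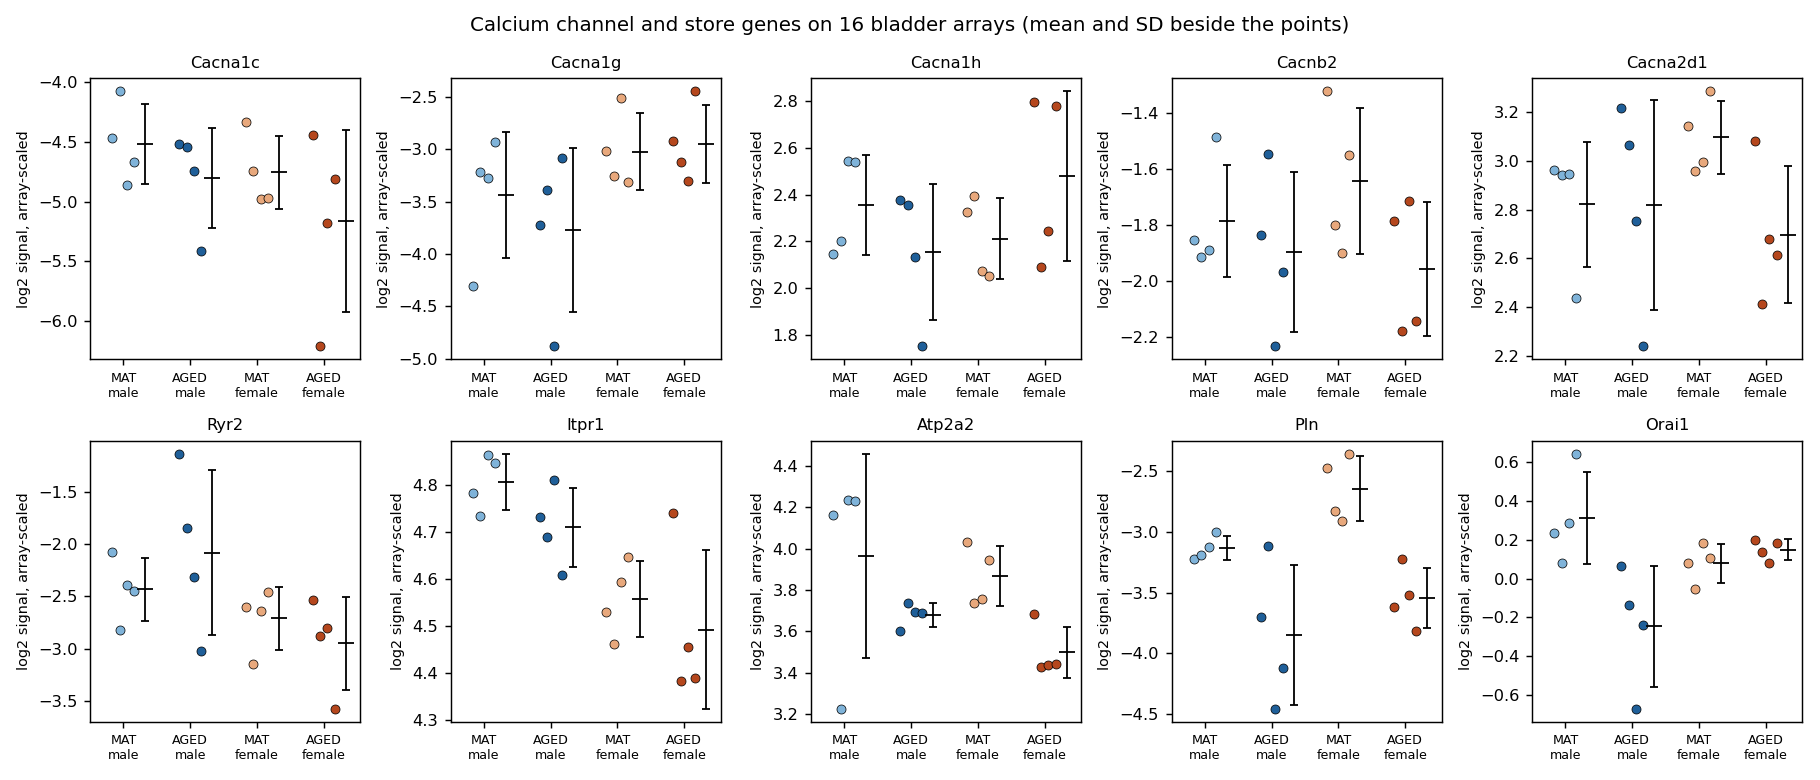
The level of each of the 10 genes is plotted for the 16 arrays in log2 units, with the mean and SD of each group of 4 beside its points and a separate axis for each gene. For the tested probes, groups of the same sex did not overlap for Pln and Atp2a2 in females and for Orai1 in males, and they overlapped for the other genes. Of all genes, 5.78% were lower without overlap in AGED females and 3.91% in AGED males.

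Orai1 forms the pore of store-operated calcium entry. Its levels were 0.23, 0.08, 0.29 and 0.64 in MAT males and 0.07, -0.14, -0.67 and -0.24 in AGED males. The male groups did not overlap, although 0.08 and 0.07 were adjacent, and 3.91% of all genes were likewise lower without overlap in AGED males. In females its level was 0.08 ± 0.10 in MAT and 0.15 ± 0.05 in AGED (mean ± SD, n = 4), and these groups overlapped.

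The age change of Orai1 was -0.56 in males (SE 0.15, adjusted p = 0.0851) and 0.07 in females (SE 0.15, adjusted p = 0.930), and it was called in neither. In males the exact two-sided permutation p was 0.0286. The difference between the sexes was -0.63 (95% interval -1.09 to -0.16, adjusted p = 0.326). Its unadjusted p of 0.0113 was under 0.05, as it was for 9.87% of all genes. The other probe of Orai1 differed by -0.32 in males, where its groups overlapped (exact permutation p = 0.171), and by -0.11 in females.

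Orai2, a second pore of the same family, was higher in AGED males. The tested probe of Orai2 was at 0.18, 0.11, 0.16 and 0.43 in MAT males and at 1.17, 1.11, 1.07 and 1.20 in AGED males. All AGED males lay above all MAT males and above all females, which ranged from 0.43 to 0.62 in MAT and from 0.27 to 0.67 in AGED. The share of all genes higher without overlap in AGED males is not given here. In males, 1.72% of all genes had an adjusted limma p below 0.05. The male change was 0.91 (SE 0.11, adjusted p = 0.00121), just under the 2-fold needed for a call in 1 sex. The female change was 0.03 (95% interval -0.21 to 0.27).

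For Orai2 the mean of both changes was 0.47 (adjusted p = 0.0141) and their difference was 0.88 (adjusted p = 0.0492), and both passed. The difference no longer passed in 14 of 16 fits that left out 1 array, where it was 0.80 to 0.95 over all 16 fits with an adjusted p of up to 0.117, and it passed only without AGED male replicate 1 or MAT male replicate 4. The other probe of Orai2 differed by 0.22 in males (exact permutation p = 0.371) and by 0.26 in females (exact permutation p = 0.0286). With the probes of Orai2 averaged, the mean of both changes was 0.36 (adjusted p = 0.0647) and the difference 0.42 (adjusted p = 0.447). With the normexp background correction these were 0.33 (adjusted p = 0.102) and 0.60 (adjusted p = 0.231).

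Saraf, whose product slows store-operated entry, was named after its values were seen. Its levels were 4.43, 4.73, 4.24 and 4.73 in MAT males and 3.31, 3.85, 3.98 and 3.11 in AGED males. These groups did not overlap, as was the case with AGED lower for 3.91% of all genes. The male change was -0.97 (SE 0.18, adjusted p = 0.0132), again just under 2-fold, and the female change was -0.09 (adjusted p = 0.914). With the normexp background correction Saraf was called in males, at -1.82 (adjusted p = 8.64e-06), and it was called in 4 of 16 fits without 1 array, where the male change ran from -1.11 to -0.82. The mean of both sexes was -0.53 and did not pass (adjusted p = 0.0539), while it passed under 6 of 10 alternatives and in 2 of 16 fits without 1 array. The difference between the sexes was -0.87 and did not pass (adjusted p = 0.216). Orai2 and Saraf were the only genes of the 7 other genes of this list past an adjusted p of 0.05 in males, where 1.72% of all genes were. None of 8 tested genes for calcium extrusion across the plasma membrane was called with age. Slc8a3, a sodium-calcium exchanger and the gene of that list with the highest mean level, differed by -0.07 in males and by -0.61 in females (adjusted p = 0.435).

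**Figure D4:**
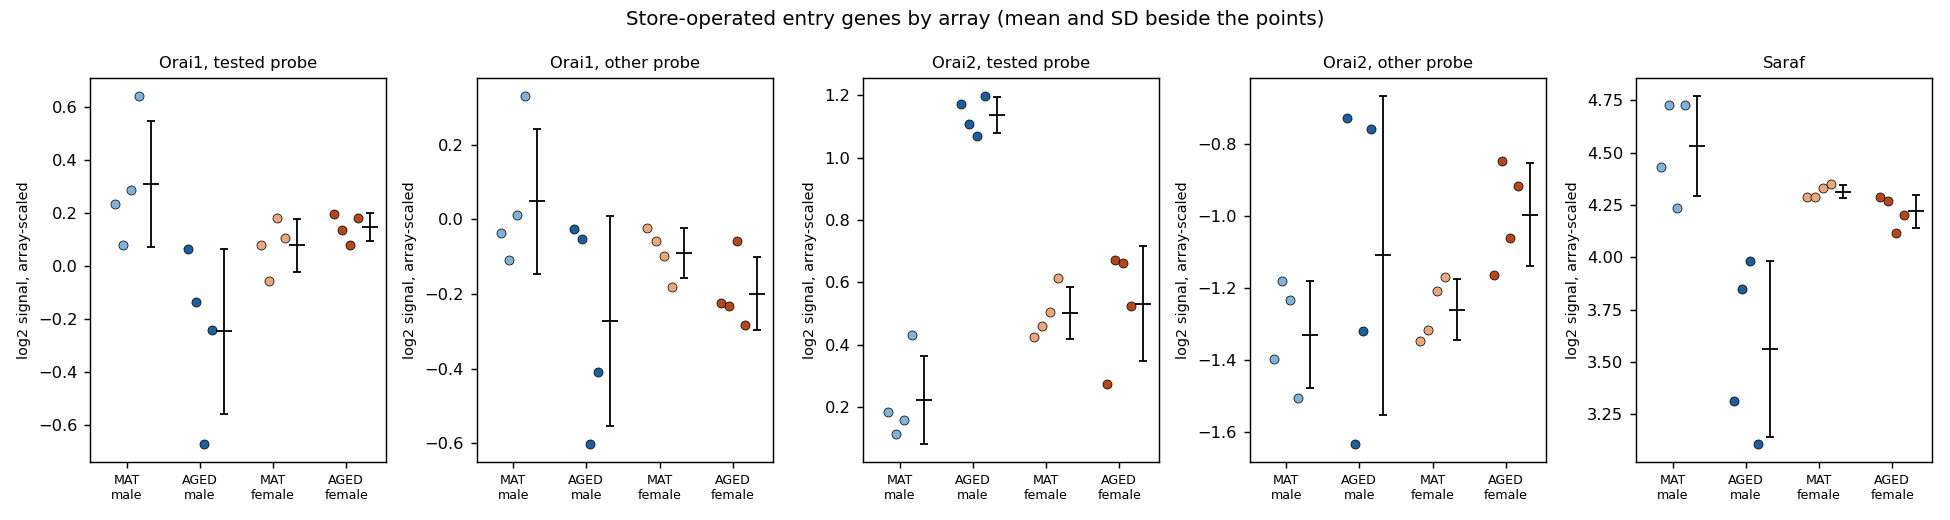
Levels of Orai1, Orai2 and Saraf are plotted for the 16 arrays in log2 units, with the mean and SD of each group beside its points and both probes of the Orai genes in panels of their own. The tested probe of Orai2 was at 1.07 to 1.20 in AGED males and at or below 0.67 in every other group, while its other probe overlapped between MAT and AGED males.

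The genes most like each of the 10 over all 16 arrays were listed as a description. These arrays share slide and row within a group, and the highest among many genes is high in any case. Pln was most like Angpt2 (Pearson r = 0.93, Spearman rho = 0.89), a ligand of the endothelial receptor Tek, and Nat8l (r = 0.91, rho = 0.88), which makes N-acetylaspartate. Atp2a2 was most like Sybu (r = 0.88, rho = 0.80) and Atp1b2 (r = 0.84, rho = 0.81). Cacna1c was most like Rab1b (r = 0.87, rho = 0.76) and Myh11 (r = 0.83, rho = 0.68), the last of which is one of the smooth muscle genes. Ryr2 was most like Herc3 (r = 0.91, rho = 0.85) and Nt5e (r = 0.90, rho = 0.77), and Orai1 was most like Prkcq (r = 0.92, rho = 0.75) and Bcl6b (r = 0.90, rho = 0.73). For the other 5 genes the pairs were Hspa13 and Atp10a for Cacna1g, Adcy5 and Plod1 for Cacna1h, Arsk and Akap6 for Cacnb2, Evc2 and Plcl1 for Cacna2d1, and Fbxl20 and Fbxo32 for Itpr1, with r from 0.82 to 0.90. Among the 10 genes themselves, Pln was most like Cacnb2 (r = 0.70, n = 16 arrays) and its r with Atp2a2 was 0.40.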

How the data were processed

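Gene expression was measured in bladder body RNA of 16 mice on 1-colour Agilent arrays. The authors scanned the arrays and deposited, per the file headers, the processed signal intensity of each spot from Feature Extraction 10.7.3.1, background-subtracted within the array and not normalized between arrays. A second table, of log2 values, was deposited by the authors and held the scaled log2 signal centred on each probe's median (largest array median difference 0.0141). Groups were taken from the titles of the arrays.

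The log2 processed signal less each array's 75th percentile over its 55681 probes was used, without control spots and 399 probe values with an outlier flag. No spot was saturated. Probes well above background on 4 or more of the 16 arrays were retained (36972 probes). The kept probe with the highest mean stood for a gene, which gave 26781 genes, 15933 with a symbol. Names came from accessions in RefSeq (GRCm38.p6). The comparisons used limma 3.58.1 (R 4.3.3), fitted once to the means of the 4 groups with all 16 arrays, which leaves 12 residual degrees of freedom before variances are moderated. P-values were Benjamini-Hochberg adjusted over all genes. Exact permutation tests were two-sided, with a smallest p of 0.0286 for 4 against 4 arrays and of 0.000408 over both sexes. The procedure was tested on simulated data. The number of arrays limits the precision.

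The 10 genes and the lists of related genes and markers were chosen with earlier results of these data known. Genes named are the 10 genes with all probes, the smooth muscle genes, genes of related lists that were called in a comparison or else the tested gene of the list with the highest mean level, and for each of the 10 genes the 2 genes with the highest Pearson r. Alternatives covered normalization, background correction, filters, a floor, probes of a gene, tests, array weights, a block for the replicate number and fits without each array in turn. Normexp used the median spot signal and an offset of 50. The replicate number coincides with the column of the slide, and no separate block for slide or position could be fitted. The bladder function and RT-PCR data were not used here.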

Additional observations from a re-analysis of the deposited data

Results flagged for a closer look

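Within groups of 4 arrays, 1 array stood far from the other 3 in 6 of 68 groups tested, by its gap to the nearest array as a share of the group's range (above 0.829). Chance marks about 1 in 20 groups. The gap was 0.928 of the range for Atp2a2 in MAT male replicate 2 (3.22 against 4.16 to 4.24) and 0.943 for Atp2a2 in AGED female replicate 1 (3.68 against 3.43 to 3.44). It was 0.962 for Cacna2d1 (2.44 against 2.94 to 2.96) and 0.857 for Cacnb2 (-1.49 against -1.91 to -1.85), both in MAT male replicate 4. It was 0.877 for the 75th percentile of AGED male replicate 1 (9.18 against 9.903 to 10.005), and 0.867 for the mean of the smooth muscle genes in MAT male replicate 3 (6.98 against 7.07 to 7.09). What set these arrays apart was not tested.

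The age change of Orai2 differed between the sexes by 0.884 on the log2 scale (adjusted p = 0.0492), with 0.91 in males and 0.03 in females. The other probe of Orai2 differed by 0.22 in males and 0.26 in females.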

How the results depend on the processing

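In each sex alone, none of the 10 genes was called under any of 14 alternatives or when any 1 of 16 arrays was left out. Averaged over the sexes, 1 gene was called, and this count was 0 with the normexp background correction and 0 with the replicate number as a block (Pln then had an adjusted p of 0.0589), 3 at an unadjusted limma p, and 0 to 1 when 1 array was left out. With MAT male replicate 2 left out the 1 called gene was Atp2a2 in place of Pln. At an unadjusted p, 1 gene (Orai1) passed for the difference between the sexes. Between males and females 0 to 1 genes were called when 1 array was left out. Relative to the smooth muscle genes, 1 gene was called in the mean of both sexes after quantile normalization, and 0 to 1 when 1 array was left out. The deviations of AGED and MAT arrays with the same number correlated from -0.147 to 0.068, and 2 of the 8 AGED arrays were most like the MAT array of their own number, so that the numbers were not taken to pair the mice. The block lowered the genes called in the mean of both sexes from 306 to 118, and in females from 51 to 3. The call of the Orai2 difference was lost under 6 of 10 alternatives, with the block among them (adjusted p = 0.111).

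Some changes turned in direction, none of them called. Quantile normalization gave 0.0021 for Cacna2d1 in males. With normexp, the male changes were 0.14 for Cacna1c, 0.082 for Cacna1g, 0.24 for Cacna2d1 and 0.15 for Itpr1, the female change of Sln was 0.068, and the means of both sexes were 0.020 for Cacna1c, 0.071 for Cacna1g and 0.015 for Itpr1. With all kept probes averaged, the male changes were 0.040 for Cacna1g and 0.17 for Cacnb2, the female change was -0.020 for Orai1, and the means of both sexes were 0.035 for Cacna1g and -0.14 for Cacna1h. Trdn in males was then at 0.075, while its tested probe alone was at -1.13. With array weights, Cacnb2 in males was at 0.015, Sln in females at 0.056, and the means of both sexes were -0.00084 for Cacna1h and -0.011 for Ryr2. The cause was not tested. Leaving out 1 array gave -0.63 to 0.035 (Cacna1g), -0.23 to 0.0021 (Cacnb2) and -0.14 to 0.19 (Cacna2d1) in males, -0.092 to 0.25 (Cacna1g), -0.016 to 0.12 (Orai2) and -0.43 to 0.29 (Sln) in females, and -0.28 to 0.055 (Cacna1g), -0.021 to 0.10 (Cacna1h) and -0.099 to 0.21 (Ryr2) in the mean of both sexes.

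Over all genes, the number called was 0 to 756 in males and 1 to 506 in females under the alternatives (228 and 51 here). It was 0 in males and 1 in females with the methods' t-test after adjustment, and 496 and 394 without. Without the filter on dim probes it was 552 and 18, and with each sex fitted alone 11 and 99. Cacna1c lay near background, and its probe was left out by the filter that asked for all 16 arrays.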
